A study of Mus musculus with 6 samples.

Results

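The comparison described here sets mast cell progenitors (MCPs) sorted from the limbs of mouse embryos at E11.5 against erythro-myeloid progenitors (EMPs) sorted from the fetal liver on the same embryonic day. It asks how far a progenitor found in a peripheral tissue stands from the liver library labelled EMP. Its members are the 3329 genes whose FPKM (fragments per kilobase of transcript, scaled to the library's mapped total) reached 10 in EMPs, in limb MCPs or in both, out of 17909 genes in the deposited table. The series holds 6 bulk RNA-seq libraries, 1 per group. All are of a C57BL/6xFVB background and all were sorted with the Csf1r-iCre fate-mapping model, in which Cre is expressed from regulatory sequence of the macrophage colony-stimulating factor receptor gene. The other 4 libraries are quoted below as levels: E11.5 liver MCPs, E11.5 liver macrophages (MAC), E14.5 limb MCPs and MCPs of E16.5 skin. The MAC library does not read as its label alone says: its summed eosinophil genes reached 10032 FPKM against 270 in EMPs. The macrophage genes C1qa and Cd163 read 0.17 and 0.02 in it. Other macrophage genes went with the label: the whole list summed to 556 FPKM against 190 in EMPs, and Csf1r read 34.1 against 12.3. It is called the macrophage-labelled library. The EMP library read high for neutrophil primary granule genes, with a sum of 10803 FPKM against 1272 in liver MCPs. Whether it held committed granulocyte cells was not tested. The labels give neither the time of induction nor the number of pooled embryos. They name the EMP library LiB7_neg and the liver MCP library LiB7_pos.

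Erythro-myeloid progenitors arise in the yolk sac, settle in the fetal liver and can give rise to red cells, megakaryocytes, granulocytes, macrophages and mast cells. Mast cell progenitors leave the blood for connective tissue, where they depend on the stem cell factor receptor KIT and fill granules with proteases, histamine and heparin. GATA2, GATA1 and MITF are transcription factors of the mast lineage, while PU.1 (Spi1) and the C/EBP proteins drive granulocyte and macrophage genes.

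Each group held 1 library, so no value has a replicate error and no p-value was computed. Every statement is about these libraries. Differences are limb minus EMP on the scale log2(scaled FPKM + 1), with scaling by median-of-ratios size factors (1.09 for limb MCPs and 1.24 for EMPs), while levels are FPKM as deposited. A gene counted as called when this difference was at least 2 in size, which is 4-fold. Other folds quoted for single genes are ratios of scaled FPKM without a pseudocount, so they differ from ratios of the levels as deposited. The number of mapped fragments, inferred from the spacing of low FPKM values, was about 11950000 in EMPs and 8600000 in limb MCPs. At these totals 3 fragments on a 2 kb transcript correspond to an FPKM of 0.126 in EMPs and 0.174 in limb MCPs. A gene listed at 0 is not bounded by these values, since a 0 can also be a failed estimate. These values cover counting error only. As a gauge of spread between the libraries, 128 subunit genes of the proteasome, the respiratory chain and the mitochondrial ribosome had differences with a median of −0.10 and an SD of 0.70 log2. Of them 14 were at least 2-fold apart and 1 (0.781%) was past 4-fold, Mrps21, which limb MCPs listed at 0. These subunit genes had an FPKM of at least 10, whereas the list counts below use 2-fold and an FPKM of at least 1. A member can reach that minimum only through the library where it is high, so the filter in part sets list counts and medians. The SD of 0.70 describes the spread of single genes, and no error of a list median is available with 1 library per group. In bulk RNA, fewer cells of a type and less RNA per cell cannot be told apart.

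Genes tied to the labels and the sort differed in both directions. Kit read 41.7 FPKM in EMPs and 155 in limb MCPs (difference 2.05 log2, just past the call and short of it with a pseudocount of 5). Csf1r read 12.3 and 0.50, and was 21.7-fold lower in limb MCPs after scaling. With a pseudocount of 5, though, the Csf1r difference was −1.45 and no longer a call. Itgb7, the integrin beta 7 chain with which mast cell progenitors enter tissue, read 0.15 and 18.5. If LiB7_neg stands for a sort on integrin beta 7, the EMP level of Itgb7 cannot be told apart from that gate. The limb label names no such gate, and the part of a gate in the difference was not tested. Cd34, a progenitor surface protein, stayed close at 73.8 and 55.1, as did Ptprc, the CD45 gene, at 12.9 and 19.8.

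Sequences just upstream of the start of 4 called genes are shown as examples. Cpa3 and Ms4a2 are mast cell genes higher in limb MCPs, and Elane and Prtn3 are granule proteases higher in EMPs. Ms4a2, at a difference of 3.47, was not among the 15 leading higher genes, so the 4 were not taken by rank alone. Each is the 120 bases before the annotated start, 5′ to 3′ on the gene's strand, from RefSeq on GRCm38.p6. The windows of Elane (in part) and Prtn3 lie inside their GENCODE gene spans, which begin further upstream than the RefSeq starts. Capitals mark the letters GATAA (or TTATC, the same motif on the other strand) in the first pair and GAGGAA in the second pair.

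Cpa3 (chr3:20242182-20242301, minus strand): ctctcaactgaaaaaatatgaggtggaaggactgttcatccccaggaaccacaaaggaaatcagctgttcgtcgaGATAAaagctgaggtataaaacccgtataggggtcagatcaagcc
Ms4a2 (chr19:11623720-11623839, minus strand): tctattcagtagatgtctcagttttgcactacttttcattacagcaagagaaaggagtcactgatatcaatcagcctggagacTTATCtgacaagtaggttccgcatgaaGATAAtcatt
Elane (chr10:79886192-79886311, plus strand): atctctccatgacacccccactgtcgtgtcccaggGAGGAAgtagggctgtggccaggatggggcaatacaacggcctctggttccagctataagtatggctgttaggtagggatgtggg
Prtn3 (chr10:79879547-79879666, plus strand): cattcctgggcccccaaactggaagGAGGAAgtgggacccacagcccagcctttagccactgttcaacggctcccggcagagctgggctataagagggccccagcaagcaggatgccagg

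GATAA is the core of the letters bound by GATA factors, and GAGGAA holds the GGAA core of ETS factors such as PU.1. Searched on both strands in the 250 bases before the start, GATAA occurred 1 time before Cpa3 and 3 times before Ms4a2 but not before Elane or Prtn3. GAGGAA occurred 1 time each before Elane and Prtn3 and not before the other pair. These matches are a description of letters. Of all 32851 promoters in the table, 22.6% held GATAA and 23.3% GAGGAA, and no GATAA match overlaps a GAGGAA match in the printed windows. The table matched 87 of the 125 genes called higher and 108 of the 146 called lower, under 80% of each, so a comparison of motif shares between the gene groups is void.

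Most genes were close between the libraries, and a minority lay far apart. Of the 3329 genes, 2488 (74.7%) differed by less than 2-fold. The call of 4-fold was met by 125 genes on the higher side (3.75%) and by 146 on the lower side (4.39%). With a pseudocount of 5, which gives low levels less weight, 59 and 50 of these genes met the same call and 162 of the 271 lost it. Differences of at least 16-fold numbered 18 upward and 17 downward. The median was −0.16, with the 5th and 95th percentiles at −1.86 and 1.65. The genes called higher had a median FPKM of 2.47 in EMPs and 24.8 in limb MCPs, and those called lower 22.4 and 1.63. Of the calls, 8 higher genes were listed at 0 in EMPs and 14 lower genes at 0 in limb MCPs.

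Of the 4 libraries set against the same EMP library (skin was not), the macrophage-labelled liver library had the fewest called genes and E14.5 limb MCPs the most. The macrophage-labelled library had 100 called genes of 3179 (3.15%), and liver MCPs had 146 of 3369 (4.33%). E11.5 limb MCPs had 271 (8.14%), and E14.5 limb MCPs had 343 of 3351 (10.2%). Pearson's r with EMPs across the genes of each comparison was 0.791, 0.743, 0.660 and 0.543 in the same order. These comparisons share the EMP library, and genes are not independent replicates. The median size of the differences did not follow that order, at 0.407, 0.550, 0.548 and 0.470 log2.

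**Figure D1:**
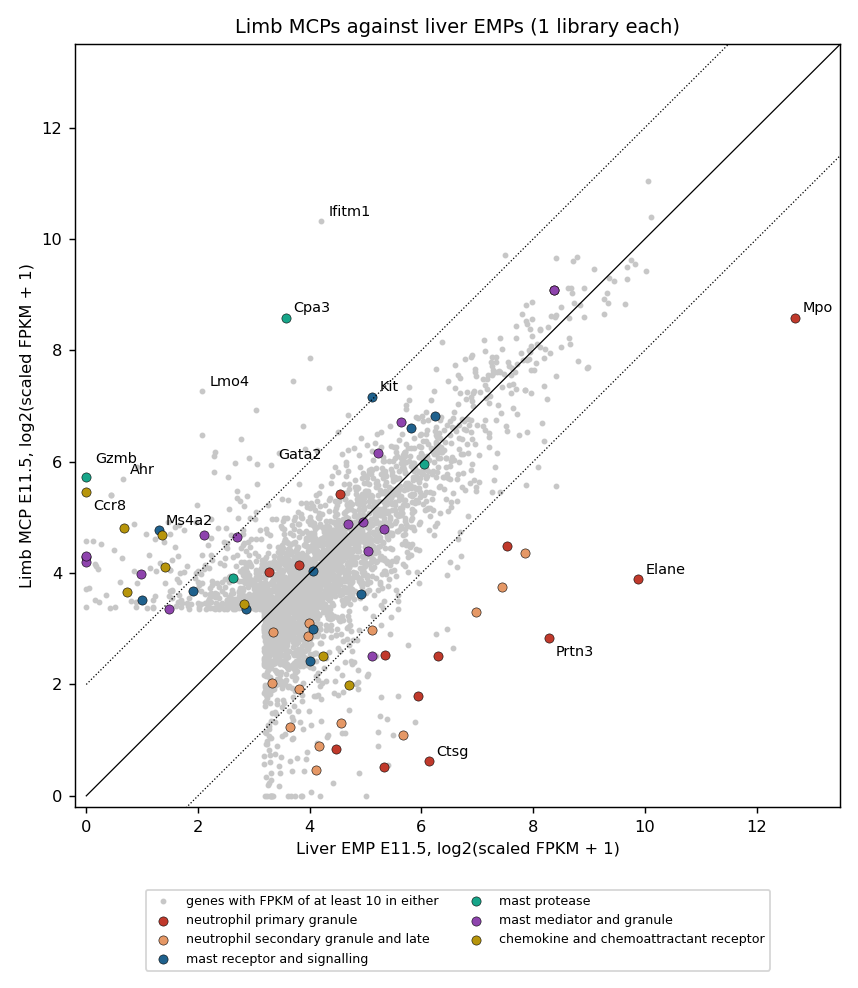
Each of the 3329 genes is a point, with its level in EMPs on the horizontal and in limb MCPs on the vertical axis (log2(scaled FPKM + 1), 1 library each), with 6 gene lists coloured and dotted lines at 4-fold. Neutrophil granule genes such as Elane and Prtn3 lie far below the line of equality, and Ifitm1, Cpa3 and Lmo4 far above it.

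The genes furthest above EMPs were of several kinds. Ifitm1, an interferon-induced membrane protein gene, read 21.7 in EMPs and 1393 in limb MCPs, and was 72.9-fold higher after scaling. The liver MCP level was in between at 387, while limb MCPs at E14.5 (45.4) and skin (30.3) were again close to EMPs. Lmo4, a LIM-only transcription cofactor, read 4.0 and 167, with 25.8 in liver MCPs, 27.1 in limb MCPs at E14.5 and 0 in skin. Ahr, the aryl hydrocarbon receptor gene, read 0.71 and 54.9, with 16.3 in liver MCPs, 17.3 at E14.5 and 0.42 in skin. All 3 genes thus peaked in the E11.5 limb library.

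Cpa3, the mast cell carboxypeptidase, was 34.9-fold higher (13.6 in EMPs and 417 in limb MCPs) and was higher still in the later libraries, at 1856 in the limb at E14.5 and 13494 in skin. Nrep, a gene named for neuronal regeneration, read 1.08 and 64.2, then 257 at E14.5 and 5.44 in skin. Slc45a3, a membrane transporter gene, read 0.44 and 45.2, and Dmd, the dystrophin gene, 0.45 and 45.0. Hapln1, which links hyaluronan to proteoglycans, read 0.11 and 24.9. Among these 5 genes the E14.5 limb level was above the E11.5 limb level for Cpa3, Nrep and Slc45a3 and below it for Dmd and Hapln1.

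Ptms, the parathymosin gene, read 3.98 in EMPs and 96.0 in limb MCPs, and Cd7, a surface protein of T cells and early lymphoid progenitors, 0.24 and 23.8. Gpr183, a receptor for oxysterols that positions immune cells, read 1.0 and 31.1. Pde7b, a phosphodiesterase gene, read 0.16 and 18.0, and Ecm1, an extracellular matrix protein gene, 0.51 and 22.1. In each of these genes, the liver MCP level fell between the EMP and limb levels.

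Another set was listed at 0 in EMPs, for which no fold is given. Gzmb, granzyme B, read 56.4 in limb MCPs, Ccr8, a chemokine receptor, 46.9, and Cd3g, a chain of the T cell receptor complex, 24.8. Slc18a2, the vesicular transporter that loads granules with amines, read 20.4, and Cyp11a1, the enzyme of the first step of steroid synthesis, 20.1. Liver MCPs already held Gzmb at 21.5 and Cd3g at 10.9 but Slc18a2 at 1.59, Ccr8 at 1.23 and Cyp11a1 at 0.67. Later, Slc18a2 and Cyp11a1 read 42.7 and 124 in skin, whereas Gzmb was listed at 0 there.

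**Figure D2:**
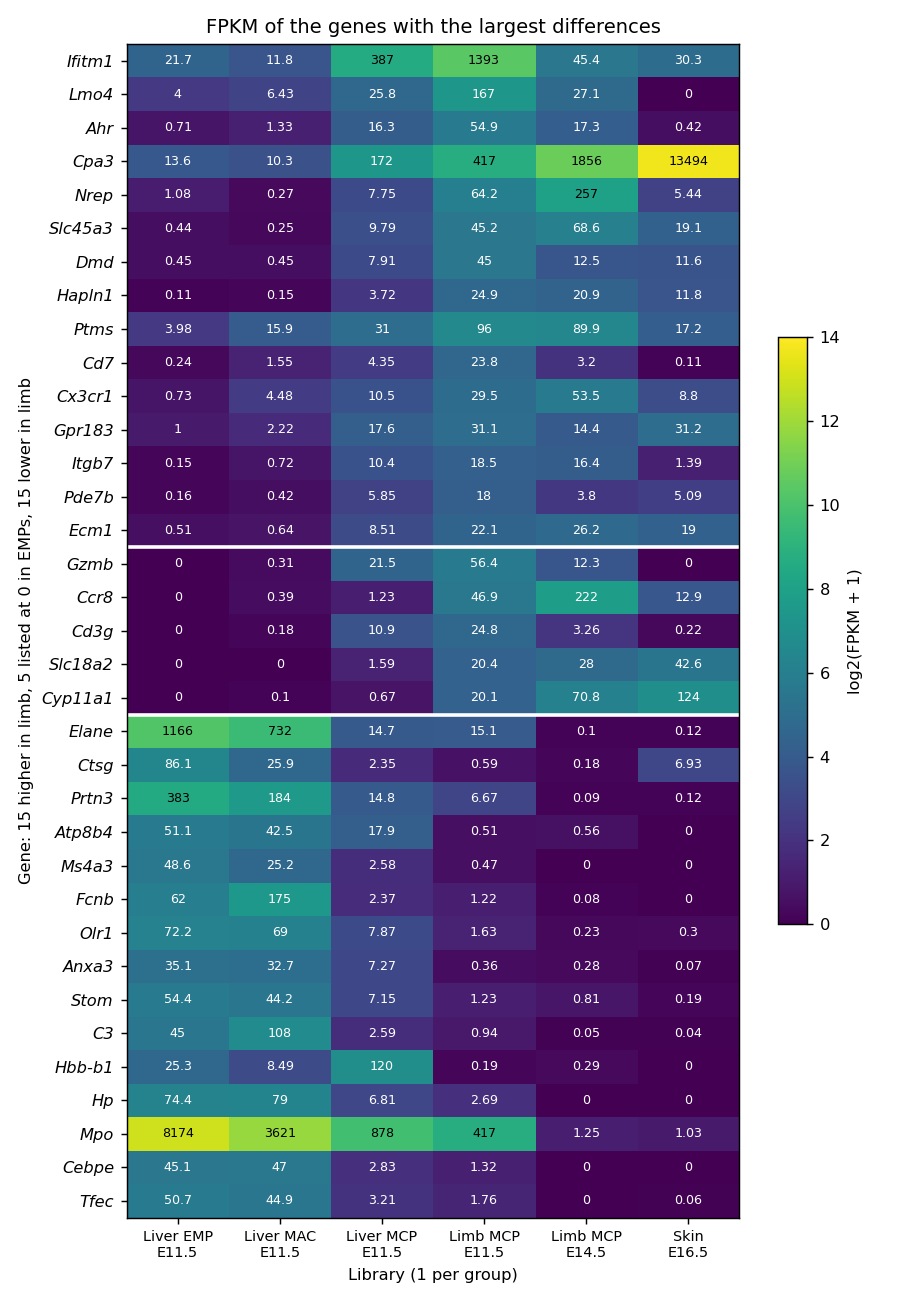
FPKM of the 15 genes with the largest higher differences, 5 genes listed at 0 in EMPs, and the 15 with the largest lower differences (rows) in the 6 libraries (columns, 1 each), with colour showing log2(FPKM + 1). Ifitm1 has its highest level in limb MCPs at E11.5 (1393), and Mpo has its highest level in EMPs (8174).

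On the lower side the leading genes included several neutrophil granule proteins. Elane, neutrophil elastase, read 1166 in EMPs and 15.1 in limb MCPs, 67.9-fold lower, with 14.7 in liver MCPs and 0.10 in limb MCPs at E14.5. Ctsg, cathepsin G, read 86.1 and 0.59, and Prtn3, proteinase 3, 383 and 6.67. Mpo, myeloperoxidase, had the highest level of any gene in EMPs at 8174 and still read 417 in limb MCPs, against 878 in liver MCPs and 1.25 at E14.5. Mpo at E11.5 in the limb was therefore 17.3-fold lower but remained as abundant as Cpa3 in the same library.

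Ms4a3, a granulocyte progenitor gene, read 48.6 in EMPs and 0.47 in limb MCPs, and Fcnb, ficolin B, 62.0 and 1.22. Cebpe, the transcription factor of granulocyte maturation, read 45.1 and 1.32, and Tfec, a relative of Mitf expressed in myeloid cells, 50.7 and 1.76. The other leading lower genes above 0 in both libraries included Atp8b4 (51.1 and 0.51), Olr1 (72.2 and 1.63), Anxa3 (35.1 and 0.36), Stom (54.4 and 1.23), the complement gene C3 (45.0 and 0.94) and the haptoglobin gene Hp (74.4 and 2.69). Hbb-b1, beta globin, read 25.3 and 0.19, but its highest level was in liver MCPs at 120. All 15 leading lower genes except Hbb-b1 were higher in the macrophage-labelled library than in liver MCPs.

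Mrps21, Hyou1, Setd1a, Fam65a and Lrp5 were listed at 0 in limb MCPs and read 21.3, 16.8, 16.6, 15.3 and 14.45 in EMPs. Mrps21 and Setd1a belong to functions that every cell uses, so a 0 here may be a failed estimate.

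By role, mast cell receptors and signalling genes went both ways, with more members higher than lower in limb MCPs. Of 19 list members that reached an FPKM of 1 in EMPs or limb MCPs, 9 were 2-fold higher and 4 were 2-fold lower, with a median difference of 0.80. Over all 9537 genes passing the same minimum, 10.7% were 2-fold higher and 12.3% were 2-fold lower, and the median was −0.03. These shares were 2.91% and 3.75% with a pseudocount of 5, where the list had 6 members higher and 2 lower. The shares over all genes are the background for every list count below. Ms4a2, which encodes the receptor for IgE in its beta chain, read 1.8 and 28.6, while the alpha chain Fcer1a was listed at 0 in EMPs and at 1.26 in limb MCPs, and the gamma chain Fcer1g read 68.3 and 105. Il1rl1, the interleukin 33 receptor, read 0.19 and 8.31. Lat (short of 4-fold with a pseudocount of 5) and Lat2, adaptors that pass the IgE receptor signal on, read 1.23 and 11.4, and 0.66 and 8.26. The lower members were Syk (19.4 and 7.65) and Plcg2 (36.4 and 12.3), a kinase and a lipase of the same cascade, Lcp2, an adaptor, and Siglecf, an inhibitory lectin (18.7 and 4.74).

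Mast cell proteases had 6 of 7 members 2-fold higher and none lower, with a median of 1.62, but only Cpa3, Gzmb, Ctsd and Ctsl reached an FPKM of 10. Gzmb, Mcpt8, Tpsg1 and Mcpt1 were listed at 0 in EMPs and passed the list minimum through limb MCPs. At a pseudocount of 5, 2 of the 7 were higher and the median was 0.81. Mcpt8, a protease of basophils, read 4.09 and was listed at 0 in EMPs. The connective tissue type chymases were near or at 0 in limb MCPs at E11.5, with Mcpt4 at 0.12 and Cma1 listed at 0, and read 86.8 and 31.9 at E14.5. Of granule mediator genes 11 of 23 were 2-fold higher and 1 was lower (median 0.96). Among members that build heparan sulfate or heparin chains, Ndst2 read 4.09 and 26.9, Ndst1 6.81 and 26.4, Ext1 2.22 and 10.1, and Hs3st1 was listed at 0 and read 18.8. Hdc, which makes histamine, already read 60.5 in EMPs and 114 in limb MCPs, and Srgn, the granule proteoglycan serglycin, 411 and 592. Il13, a cytokine of type 2 immunity, was listed at 0 and read 8.69. The lower member was Rab27a, a granule transport GTPase (41.6 and 5.13), whose relative Rab27b went the other way (0.51 and 7.80).

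Lipid mediator genes were divided, with 2 of 9 higher, 2 lower and a median of 0.42, or 1 and 1 with a pseudocount of 5. Alox5, the first enzyme of leukotriene synthesis, read 4.64 and 14.02, and Ptgs1, cyclooxygenase 1, read 28.8 and 2.87.

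Transcription factor lists went both ways. Of the mast and erythro-megakaryocytic list, 5 of 21 were 2-fold higher and 4 lower (median 0.45), or 4 and 2 with a pseudocount of 5. Gata2, a factor of stem and mast cells, read 10.98 in EMPs and 66.2 in limb MCPs, with 16.9 in liver MCPs and 142 at E14.5. Gata1, its erythroid and mast cell relative, read 3.58 and 16.3, and Meis2, a homeodomain factor, 0.05 and 9.12. Lmo2 and Lyl1, members of the same stem cell complex as Tal1, were lower, at 21.6 and 2.53 and at 20.3 and 2.69, while Tal1 itself read 6.87 and 8.65. Gata1, Lmo2 and Lyl1 were short of 4-fold with a pseudocount of 5, and Gata2 was not. In the liver MCP library Lmo2 stood at 29.2, so the low level was seen in the limb and not in both MCP libraries.

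Of the myeloid transcription factor list, 7 of 18 were 2-fold lower and 4 higher, with a median of −0.86. These were 5 and 2 with a pseudocount of 5. Spi1, which encodes PU.1, read 108 and 15.9, and Irf8, a factor of monocytes, 12.0 and 2.31. Cebpa, which starts the granulocyte lineage, was at low levels in both (5.02 and 1.14). Id2, an inhibitor of basic helix-loop-helix factors, was the highest upward difference in the list, at 0.64 and 14.4, with 8.84 in liver MCPs. Egr1, an immediate early gene, read 30.8 and 123. Id2 and Egr1 were short of 4-fold with a pseudocount of 5.

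Progenitor genes went both ways. Of 19 members 10 (52.6%) were within 2-fold, against 77.0% of all genes at the same minimum, while 6 were lower and 3 higher (median −0.39). At a pseudocount of 5, 2 were lower and 2 higher. Hmga2, a chromatin protein of fetal cells, read 40.04 and 44.2, and Lin28b, an RNA-binding protein of fetal blood progenitors, 24.6 and 19.8. Lower were Myb, the progenitor transcription factor (154 and 49.6), Cd93, Hlf, Igf2bp1, Igf2bp3 and Lmo2. Higher were Kit, Angpt1, an angiopoietin (5.86 and 22.7), and Sox4 (2.19 and 5.69).

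**Figure D3:**
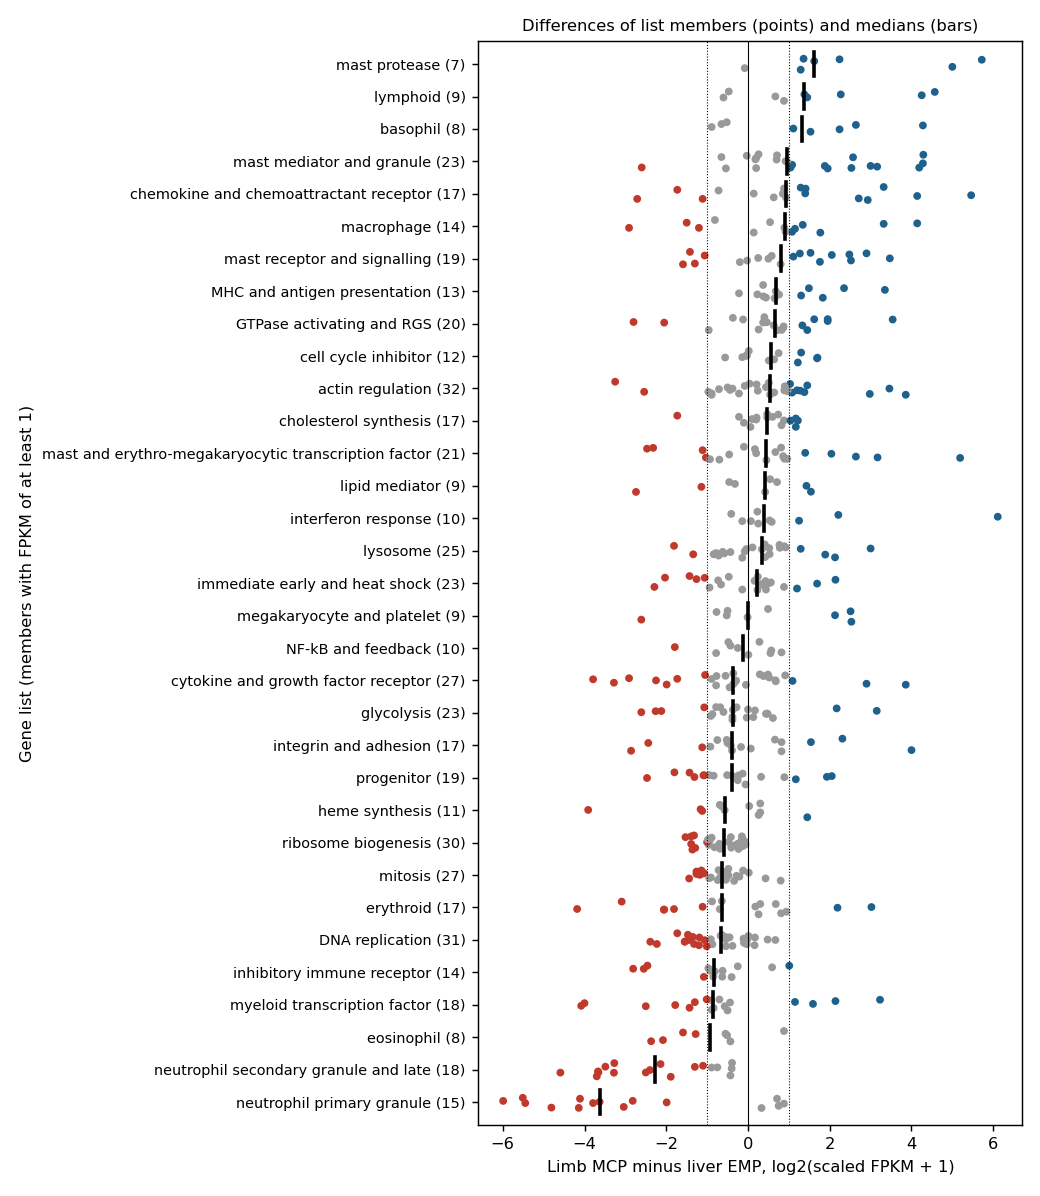
Differences of the members of 33 gene lists (points, limb MCPs minus liver EMPs on the log2(scaled FPKM + 1) scale) with the list median (black bar), for members reaching an FPKM of 1 in EMPs or limb MCPs, blue at least 2-fold higher and red at least 2-fold lower. Neutrophil primary granule genes have the lowest median (−3.63) and mast cell proteases the highest (1.62).

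The neutrophil and eosinophil lists had the lowest medians. Neutrophil primary granule genes had 11 of 15 members 2-fold lower, 10 of them called, and none higher (median −3.63). Their summed FPKM was 10803 in EMPs and 1151 in limb MCPs. The 4 members within 2-fold were Srgn, Nkg7, Ctsc and Cst7, which other granule-bearing cells express too, and Srgn is also in the mediator list. Ctsc, which activates granule proteases, read 10.7 and 16.7. Secondary granule and late neutrophil genes had 13 of 18 lower and none higher (median −2.27), with S100a8 at 215 and 13.54 and Camp, the cathelicidin gene, at 28.2 and 1.60. The summed level of this list was 939 in EMPs, 92.6 in limb MCPs and 5326 in the macrophage-labelled library.

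Eosinophil genes had 4 of 8 lower and none higher (median −0.92), with Prg2, the major basic protein, at 151 and 54.1 and Epx, eosinophil peroxidase, at 57.7 and 11.2. The receptors through which granulocyte growth factors act were lower as well. Csf2ra, the specific chain of the receptor for GM-CSF, read 58.3 and 2.69, and Csf3r, the G-CSF receptor, 21.1 and 0.94, whereas the shared beta chain Csf2rb read 54.5 and 69.3. Of the 27 cytokine receptor genes measured, 7 were 2-fold lower and 3 were higher (median −0.36). The higher ones were Il2rg, the common gamma chain (18.6 and 252), Il1rl1 and Il9r. Tnfrsf1a, a TNF receptor, read 14.6 and 1.83, and Il6ra 10.6 and 1.54. The list had 5 lower and 2 higher with a pseudocount of 5, where Csf3r and Tnfrsf1a were short of 4-fold.

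Receptors for chemoattractants went both ways. Of 17 members 8 were 2-fold higher and 3 lower, with a median of 0.93. With a pseudocount of 5 these were 5 and 2, and of the genes named next P2ry14 and Cxcr4 were short of 4-fold, at differences of 1.68 and −1.92. Those called higher included Ccr8, Cx3cr1 (0.73 and 29.5), Ccr2 (1.94 and 26.8) and P2ry14, a receptor for sugar nucleotides (2.04 and 17.8). Cxcr4, which holds progenitors in blood-forming tissue, was called lower (31.2 and 3.26), with 14.3 in liver MCPs and 0.78 at E14.5. Cxcr2, the neutrophil chemokine receptor, read 22.3 and 5.16. By E14.5 the levels had diverged: Ccr8 read 222 and Cx3cr1 53.6, whereas Ccr2 read 9.02.

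Among integrins and adhesion genes 3 of 17 were higher and 3 lower (median −0.39). Itga4, the partner chain of integrin beta 7, read 17.4 and 80.5, with 76.5 already in liver MCPs. Selplg, a selectin ligand, read 8.24 and 23.2. Itga6, the laminin-binding alpha 6 chain, read 8.27 and 0.06. Of the actin genes, 21 of 32 were within 2-fold, 9 were higher and 2 lower (median 0.53), and with a pseudocount of 5, 3 were higher and 2 lower. Tmsb10, an actin-binding thymosin, read 24.0 and 174, S100a10, a partner of annexin A2, 4.91 and 77.6, and Evl, an actin polymerase, 2.16 and 31.9. Evl was at 3.55 in liver MCPs and 1.62 at E14.5, below its E11.5 limb level in both.

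Genes known from lymphoid cells were higher in 5 of 9 members and lower in none (median 1.38), and with a pseudocount of 5 in 2. All 5 higher members were below an FPKM of 1 in EMPs and passed the minimum through limb MCPs. The filter thus in part sets this count and median. Besides Cd3g and Cd7, these were Tcf7 (listed at 0 and 4.20), Rag2, of antigen receptor recombination (0.64 and 3.43), and Gata3 (0.04 and 1.85). The B cell genes Cd79a and Cd79b read 1.35 and 2.55, and 6.52 and 3.42. Of class II antigen presentation genes, H2-Aa read 0.15 and 11.4, H2-Ab1 0.96 and 5.79, and Cd74 was listed at 0 and read 4.47. Class I genes H2-K1 (95.8 and 72.4) and H2-D1 (58.9 and 60.9) were close. Of the whole antigen presentation list 5 of 13 were higher and none lower (median 0.68), and with a pseudocount of 5, 1 was higher.

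Macrophage genes did not move as 1 group. Of 14 members, 6 were higher and 3 lower (median 0.91; 4 and 1 with a pseudocount of 5), and the higher ones included Cx3cr1, Ccr2, Tyrobp, a signalling adaptor of many myeloid cells (102 and 308), and Apoe (24.8 and 57.2). The defining genes C1qa, Cd163, Timd4 and Ms4a7 were listed at 0 in limb MCPs, and Adgre1, the F4/80 gene, read 2.50 and 2.55. The summed level of the list was 190 in EMPs, 476 in limb MCPs and 556 in the macrophage-labelled library. Its part in the results was not tested.

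Erythroid genes had 6 of 17 lower and 2 higher (median −0.64), or 2 and 1 with a pseudocount of 5. Globin genes were near 0 in limb MCPs, Hba-a1 at 0.65 against 15.7 in EMPs, but Car1, carbonic anhydrase 1, was 28.7 against 2.91, and Kel, a blood group protein gene, 4.63 against 0.18. Alas1, the first enzyme of heme synthesis in most cells, read 116 and 5.76, while its erythroid form Alas2 read 0.90 and 1.17. Slc25a38, the mitochondrial glycine carrier of that pathway, read 6.69 and 18.0. The whole heme synthesis list had 3 of 11 lower and 1 higher (median −0.57), or 1 and 1 with a pseudocount of 5. Megakaryocyte genes had 3 of 9 higher and 1 lower, with F2r, the thrombin receptor, at 7.83 and 44.3 and Thbs1, thrombospondin 1, at 10.1 and 0.54. Of the basophil list 5 of 8 were higher, namely Gata2, Cyp11a1, Mcpt8, Fcer1a and Cd200r3 (median 1.32), and none was lower, while with a pseudocount of 5, 2 were higher. Except for Gata2, these named genes were below an FPKM of 1 in EMPs and passed the list minimum through limb MCPs.

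Most markers of surrounding tissue were low. Of 26 limb mesenchyme and connective tissue genes, 3 had an FPKM of at least 1 in limb MCPs: Mdk, the growth factor midkine (2.66 in EMPs and 30.8), Pdgfrb, a receptor for platelet-derived growth factor (0.92 and 11.2), and Hoxd13 (listed at 0 and 3.58). Liver MCPs read 8.28 for Mdk and 3.52 for Pdgfrb. The abundant genes of that tissue were near 0, with Col1a1 at 0.10, Col1a2 at 0.20, Col3a1 at 0.12 and Prrx1 at 0.39, and Prrx2, Twist1 and Hand2 were listed at 0. The summed mesenchyme list was 4.1 in EMPs and 49.0 in limb MCPs, and its part in the results was not tested. Summed levels of muscle genes were 0.1 and 1.3. Of 19 hepatocyte and hepatoblast genes, 2 reached an FPKM of 1: Trf (6.27 in EMPs and 27.0 in limb MCPs) and Krt18 (1.52 and 2.50). That list summed to 10.6 in EMPs and 30.8 in limb MCPs, and its part in the results was not tested. Alb, the albumin gene of hepatocytes, read 0.31 in EMPs and was listed at 0 in limb MCPs. Of 13 endothelial genes, 3 reached an FPKM of 1, led by Pecam1 (10.5 and 6.66), which blood cells also express.

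Most genes of DNA replication, mitosis and ribosome biogenesis were within 2-fold, and those that were not were lower in limb MCPs. The shares within 2-fold were 58.1%, 74.1% and 80.0%, against 77.0% of all genes at the same minimum. Of 31 DNA replication genes 13 were 2-fold lower and none higher (median −0.67), among them Cdc45, of the replicative helicase (26 and 3.49), Chaf1a, a histone chaperone gene (23.1 and 3.47), and Mcm7, a helicase subunit (47.3 and 13.47). Of 27 mitosis genes 7 were lower and none higher (median −0.63), and Mki67, the proliferation marker, read 71.7 and 40.9. Ribosome biogenesis genes had 6 of 30 lower and none higher (median −0.58), with Fbl, fibrillarin, at 95.3 and 31.4. The members lower numbered 8, 1 and 3 in these lists with a pseudocount of 5. Cell cycle inhibitors and cyclins D and G included 4 of 12 members that were higher (1 with a pseudocount of 5) and none lower, such as Cdkn1c, a cell cycle inhibitor (0.38 and 3.54), and Ccnd2, cyclin D2 (7.17 and 22.9). Myc itself read 104 and 56.3.

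Metabolic and stress lists were mixed, and their counts are followed by those with a pseudocount of 5 where these differ by over 1.5 times. Of all genes reaching an FPKM of 1, 10.7% were 2-fold higher and 12.3% lower, or 2.91% and 3.75% with a pseudocount of 5. The first glycolysis and lysosome counts below were near the first pair of shares. Glycolysis genes had 4 of 23 lower and 2 higher (median −0.37), then 2 and 1. The glucose transporter Slc2a3 read 8.15 and 72.3, while Hk3, a hexokinase of myeloid cells, read 9.38 and 0.44. Lysosome genes had 4 of 25 higher and 2 lower (median 0.34), with Ids, which degrades heparan sulfate, at 1.21 and 16.2 and Grn, progranulin, at 28.7 and 6.44. Cholesterol genes had 4 of 17 higher and 1 lower (median 0.47), then 0 and 1. Immediate early and heat shock genes had 3 of 23 higher and 5 lower (median 0.23), then 1 and 1, with Hspa1b at 5.06 and 0.04 and Fosb at 15.8 and 4.50. The NF-kB list had none of 10 higher and 1 lower (median −0.12), then 0 and 0. The interferon list had 3 of 10 higher, of which Ifitm1 and Ifitm2 carried the levels, while Ifitm3 (29.2 and 27.0) was close. Inhibitory receptors had 4 of 14 lower and 1 higher (median −0.83), then 3 and 0, among them Clec12a, a lectin of myeloid cells (34.7 and 3.43). G protein signalling genes had 6 of 20 higher and 2 lower (median 0.67), then 3 and 2, led by Rgs1, a regulator of chemokine receptor signals (4.79 and 60.6).

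Some genes of 1 cluster or family went opposite ways. Ms4a2 (chromosome 19 at 11615523 to 11623719 on GRCm38) and its neighbour Ms4a3 (11629496 to 11640851) are separated by 5.78 kb, and they read 1.8 and 28.6, and 48.6 and 0.47. On chromosome 14, Ctsg (56099881 to 56102574) and Gzmb (56258838 to 56262260) belong to 1 cluster of serine protease genes with others between them, and the former was 129-fold lower in limb MCPs while the latter was listed at 0 in EMPs. In the S100 genes of chromosome 3, which lie in separate stretches, S100a8 and S100a9 were called lower (284 and 21.3 for S100a9), S100a10 was called higher, and S100a11 was close (199 and 255). Csf1r and Pdgfrb, 15.5 kb apart on chromosome 18, were called lower and higher. Coro1b and Ptprcap, also called in opposite directions, overlap in the annotation, and the strand setting of the counting is not given in the sources used here, so their values are uncertain. Csf1r, Pdgfrb, Coro1b, and Epx and Fstl3 named next, were short of 4-fold with a pseudocount of 5.

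Other neighbours went together. On chromosome 10, Prss57 (79781474 to 79790961), Prtn3 (79874476 to 79883174) and Elane (79886247 to 79888215) were all called lower, Prss57 at 26.3 and 0.86. Prss57 overlaps Fstl3, which was lower too (14.3 and 0.59). Mpo and Epx on chromosome 11 were both lower, and Cx3cr1 and Ccr8, 22.2 kb apart on chromosome 9, both higher. Ifitm1 and Ifitm2 on chromosome 7 were called higher, while Ifitm3 of the same cluster was not. Among called genes, 19 pairs lay next to each other within 100 kb, 13 with the same direction and 6 with opposite directions. The pairs are not separate, since Fstl3, Prss57, Palm, Prtn3 and Elane form a single run. The same count was not made over all genes passing the filter, so no excess can be read from it. Paralogs such as the Stfa, Ear and Ifitm genes may share reads.

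**Figure D4:**
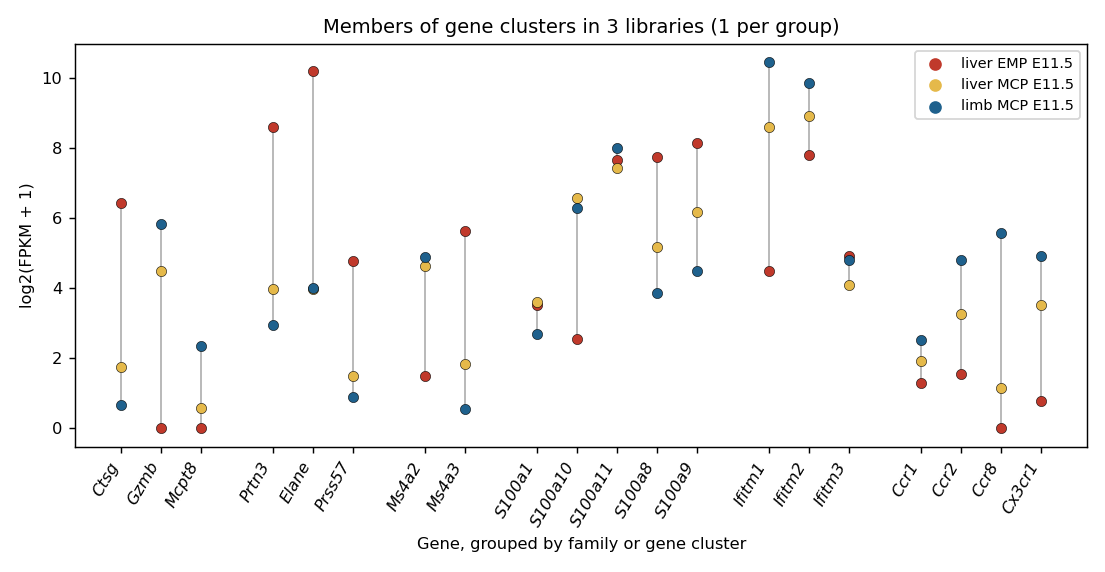
Levels (log2(FPKM + 1), vertical) of selected members of 6 gene clusters, each with an FPKM of at least 4 in EMPs or limb MCPs (horizontal, grouped by cluster) in EMPs, liver MCPs and limb MCPs, 1 library each. Ctsg and Gzmb, Ms4a2 and Ms4a3, and S100a8 and S100a10 cross over, with red above blue in one member and below it in the other.

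The levels of the called genes in the other libraries, which entered the calls through the size factors alone, were as follows. The 125 genes called higher had a median level (log2(scaled FPKM + 1)) of 1.58 in EMPs, 2.02 in the macrophage-labelled library, 3.18 in liver MCPs, 4.57 in limb MCPs, 4.4 in limb MCPs at E14.5 and 4.09 in skin. Per gene, with the EMP level at 0% and the limb level at 100%, liver MCPs stood at a median of 56.9%, the macrophage-labelled library at 5.67% and limb MCPs at E14.5 at 92.6%. Of the 125 genes, 97 had an FPKM of at least 10 in limb MCPs at E14.5 and 61 in liver MCPs. The 146 genes called lower stood at medians of 4.25, 4.70, 2.74, 1.32, 0.94 and 0.66 in the same order. For them liver MCPs stood at a median of 68.2% of the way, and the macrophage-labelled library at −3.64%. The ends of this scale were selected for their distance, so a library unlike either can also fall between them.

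The library with the highest level differed between genes. Of the genes called higher, 55 peaked in limb MCPs at E11.5, 20 in limb MCPs at E14.5 and 44 in skin, whose size factor of 0.524 raises its scaled values. Of the genes called lower, 55 peaked in EMPs and 76 in the macrophage-labelled library. The longest annotated transcript had a median of 2796 bases in genes called higher and 2859 in those called lower. This median was 3033 in all genes passing the filter. Median GC content was 48.5% in genes called higher and 52.1% in those called lower, on either side of 49.4% in all genes passing the filter.

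**Figure D5:**
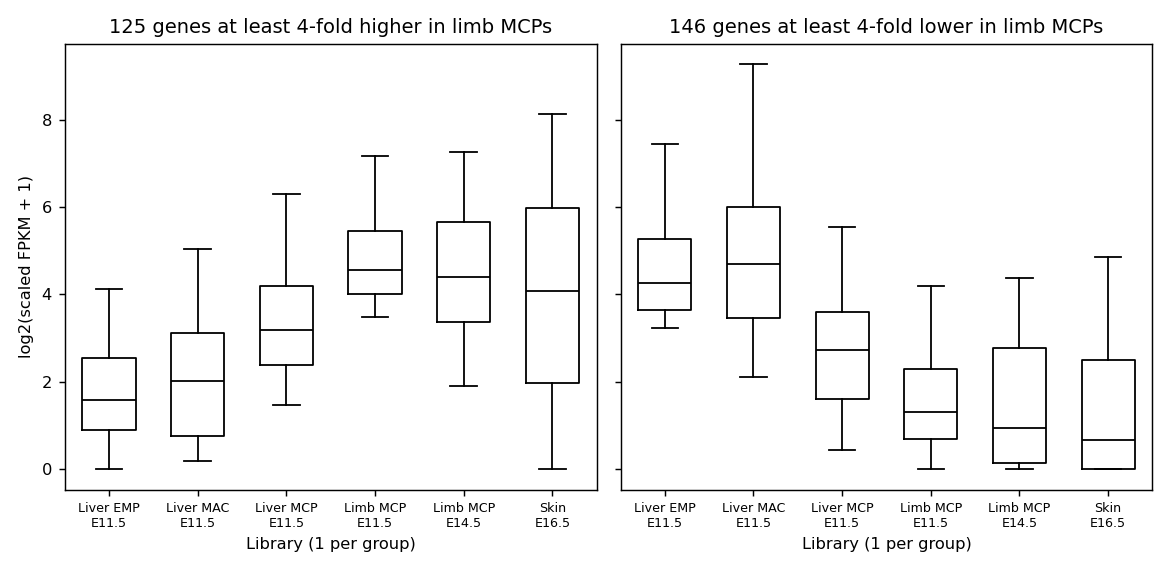
Levels (log2(scaled FPKM + 1), vertical) of the 125 genes called higher (left) and the 146 called lower (right) in the 6 libraries (horizontal, 1 each), with boxes from the 25th to the 75th percentile over genes, a line at the median and whiskers from the 5th to the 95th. Liver MCPs lie between EMPs and limb MCPs in both panels, at medians of 3.18 and 2.74.

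Values at the limits of the rules were close to each other. Around the FPKM minimum, Bcr (10 in EMPs and 8.99 in limb MCPs) was inside and Helz (9.99 and 5.86) was outside. Around the 4-fold limit, Gngt2 (5.90 and 24.2) was inside and Ndufb11 (4.67 and 19.54) outside on the higher side, and Prkcd (34.4 and 6.46) inside and Il6ra outside on the lower side.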

How the data were processed

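Bulk RNA-seq was measured in 6 libraries. Total RNA came from sorted cells by TRIzol, and libraries were built and sequenced on the Illumina HiSeq platform, per the labels' protocols. The authors deposited 1 table of FPKM values with 2 decimals, for which the submitters' processing notes name RSEM, Bowtie2 and the builds mm10 and GRCm38. Versions and the annotation are not given there. Of 17913 rows, 4 with a repeated name were dropped. Of the remaining 17909 symbols, 96.9% were found once in GENCODE M21 (GRCm38), which gave positions.

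Groups came from the labels. FPKM was divided by median-of-ratios size factors over the 4580 genes that reached an FPKM of 1 in every library, and log2(scaled FPKM + 1) was compared between limb MCPs and EMPs, with Python 3.11.15, numpy and pandas. Genes reaching an FPKM of 10 in EMPs or limb MCPs were kept and called at 4-fold. The 38 gene lists (816 entries) used an FPKM of at least 1 and 2-fold. With 1 library per group no test was run. Calling and depth estimation were checked on simulated data. The simulated counts held counting error alone, with no other spread between libraries. They do not show how many unchanged genes pass the call in these data. Depth was estimated as the total that brought implied fragments of 1409 genes with a single transcript nearest to whole numbers (77.3% of EMP and 73.0% of limb values fell within 0.2 of one, where 40% would do so by chance), a method adopted with the data in view.

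Named genes are the 15 largest differences each way among genes above 0 in both libraries (without predicted, ribosomal protein, histone, small RNA and date-named genes), up to 5 each way listed at 0 in a library, 5 sort-related genes, and up to 4 members each way plus the most abundant of each list. Further members and neighbouring genes were named after their values were seen. The members and lists were chosen with earlier results of these data known. Alternatives were pseudocounts, filters, scalings and gene sets, listed in the closing section. Some items are not reported here.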

Additional observations from a re-analysis of the deposited data

How the results depend on the processing

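The counts of genes past 4-fold followed the pseudocount and the expression filter. With a pseudocount of 5 they were 59 higher and 50 lower, without an expression filter 222 and 258, and with an FPKM of at least 30 they were 48 and 58. These settings change the size of low-level differences or the number of genes tested. With a pseudocount of 0.1 (151 and 174), the FPKM as deposited (109 and 178), equal sums (155 and 165), size factors from the compared pair alone (134 and 147), genes listed at 0 left out (117 and 132), and erythroid and neutrophil granule genes removed (133 and 126) the counts stayed within 1.5 times. Size factors without the skin library, chosen after seeing the data, gave 135 and 146. The median over genes ranged from −0.34 (as deposited) to 0.02 (no filter). No gene named by rule as a leading or sort-related gene changed sign. The median of the megakaryocyte list lay between −0.26 and 0.05, and list medians changed sign in 1 alternative each for the integrin, cytokine receptor, immediate early, NF-kB and lysosome lists. With 1 library per group, no alternative leaves out a replicate. Depth limits values below about 0.174 FPKM in limb MCPs. Of the 92 called genes named by rule, 33 lost the call with a pseudocount of 5: 6 of the 42 leading or sort-related genes (Kit, Csf1r, Hyou1, Setd1a, Fam65a and Lrp5) and 29 of the 72 named list members, some being both. FPKM as deposited gave 13 ribosome biogenesis genes lower (6 with scaling) and 7 higher and 5 lower actin genes.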
